A study of Mus musculus with 24 samples.

Results

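Histone deacetylases of class I, IIa and IIb were followed in splenic B cells with and without the DNA-demethylating enzymes Tet2 and Tet3. The 10 genes are Hdac1, Hdac2, Hdac3 and Hdac8 (class I), Hdac4, Hdac5, Hdac7 and Hdac9 (class IIa), and Hdac6 and Hdac10 (class IIb). They were found by symbol in the gene column of each of 2 deposited tables, where they are 10 of 23234 genes, by a rule that uses symbols only. The set of 10 was itself chosen with earlier results of these data known. RNA-seq had been run on primary B cells taken fresh from the spleen of C57BL/6 mice, and 12 libraries in 4 groups of 3 were used. These were CD93- B cells of control genotype, CD93- B cells labelled Tet2/Tet3-deficient, CD93+ B cells of control genotype and CD93+ B cells labelled Tet2/Tet3-deficient. Control libraries are called CTL and deficient ones DKO (Tet DKO in the titles of the CD93- libraries, Tet KO in those of the CD93+ libraries). CD93 is a surface protein found on immature and transitional B cells, though not on these alone. The labels name no Cre driver, promoter, deleted exon, age or sex, and do not say whether the control animals carried unrecombined alleles. Nor do they say whether each library came from its own animal, and the p-values then describe spread among libraries, which may be technical.

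These enzymes use a zinc ion to remove acetyl groups from lysines of histones and other proteins, which at chromatin goes with closed, less transcribed genes. Class I enzymes are mainly nuclear: Hdac1 and Hdac2 are near-identical catalytic subunits of the Sin3, NuRD, CoREST and MiDAC complexes, Hdac3 is the subunit of the NCoR complex, and Hdac8 works outside such complexes on cohesin among other substrates. Class IIa proteins have little catalytic activity of their own, bind MEF2 transcription factors, and leave the nucleus bound to 14-3-3 proteins once kinases have phosphorylated them. Hdac7 is known for holding down genes of other lineages in developing B cells, and Hdac9 is best known from muscle and regulatory T cells. Hdac6 is a cytoplasmic deacetylase of tubulin and Hsp90, and Hdac10 acts on acetylated polyamines. Tet2 has been found to bind Hdac1 and Hdac2 at some genes, besides oxidising 5-methylcytosine at CG sites.

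Since Tet enzymes act on methylated CG sites, the CG content of the members' promoters is shown for the 2 genes on which the results turn, Hdac9 and Hdac5. Hdac2 is shown as a class I gene that was not called, and it has the most CG of the member windows. Promoter windows of 300 bases, from 250 bases before to 50 bases after an annotated start, came from RefSeq (build GRCm38.p6; the FPKM values are on mm9, so these coordinates do not apply to them). They matched 7 members with 11 windows, and none was matched for Hdac1, Hdac3 and Hdac10. Each is written 5′ to 3′ on the gene's strand, with every CG in capitals. The Hdac9 windows lie at chr12:34917046-34917345 (upstream start) and chr12:34528840-34529139 (downstream start), both on the minus strand, Hdac5's at chr11:102230123-102230422 on the minus strand and Hdac2's at chr10:36974294-36974593 on the plus strand.

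Hdac9 upstream start: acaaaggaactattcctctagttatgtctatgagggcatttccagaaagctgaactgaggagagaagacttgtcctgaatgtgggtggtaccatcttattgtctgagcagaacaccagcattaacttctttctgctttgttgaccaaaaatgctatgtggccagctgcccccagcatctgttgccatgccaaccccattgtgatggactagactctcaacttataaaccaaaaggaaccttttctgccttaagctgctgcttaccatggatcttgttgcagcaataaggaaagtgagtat

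Hdac9 downstream start: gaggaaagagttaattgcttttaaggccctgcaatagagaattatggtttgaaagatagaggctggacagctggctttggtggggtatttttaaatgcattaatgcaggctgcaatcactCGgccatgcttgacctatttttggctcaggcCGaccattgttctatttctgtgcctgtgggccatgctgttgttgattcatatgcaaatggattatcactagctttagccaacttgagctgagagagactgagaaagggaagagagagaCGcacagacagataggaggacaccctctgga

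Hdac5: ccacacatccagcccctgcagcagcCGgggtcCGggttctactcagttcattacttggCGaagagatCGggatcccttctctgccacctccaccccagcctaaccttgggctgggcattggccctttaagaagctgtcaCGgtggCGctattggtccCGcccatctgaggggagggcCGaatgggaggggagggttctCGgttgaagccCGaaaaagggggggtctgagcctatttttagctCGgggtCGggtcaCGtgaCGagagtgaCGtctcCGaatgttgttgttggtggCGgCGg

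Hdac2: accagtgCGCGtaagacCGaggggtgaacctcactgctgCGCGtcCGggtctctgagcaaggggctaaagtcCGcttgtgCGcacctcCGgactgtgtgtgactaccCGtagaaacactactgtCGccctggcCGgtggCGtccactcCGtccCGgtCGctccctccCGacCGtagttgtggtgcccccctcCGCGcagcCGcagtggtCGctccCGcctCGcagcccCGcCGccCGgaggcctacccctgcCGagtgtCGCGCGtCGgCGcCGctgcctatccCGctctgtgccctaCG

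The Hdac9 windows hold 0 and 3 CG, the Hdac5 window 18 and the Hdac2 window 36. Over the 32817 promoter windows of the RefSeq table the median was 7, with quartiles of 3 and 20, and 94.6% held at least 1 CG. The Hdac2 count exceeded that of 93.8% of windows and the Hdac5 count that of 70.3%, while the downstream Hdac9 window exceeded 23.3%. Among the other members, Hdac4 had 32 CG, Hdac6 had 20, Hdac8 had 6, and the 4 Hdac7 windows had 5, 6, 31 and 35. The letters TATAAA, searched on both strands, occur in the upstream Hdac9 window and the Hdac8 window, and in 13.6% of all windows. A match is a description of letters, methylation was not measured here, and which start these cells use is not known from gene-level values. Whether CG content goes with the changes of the members was not tested.

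Facts of the libraries that touch the results are as follows. Summed FPKM (fragments per kilobase of transcript, per library size) ran from 342368 to 463987 in CD93- libraries. It ran from 523898 to 597968 in 5 CD93+ libraries and was 309359 in CD93+ DKO 3, the lowest of all 12. The depth is unknown, since FPKM holds no counts. Results are therefore given with the authors' scaling and again after each library was multiplied by a factor that gave tested genes the same upper quartile in every library, called rescaled below. That factor was 0.904 to 1.26 in CD93- libraries and 0.855 to 0.996 in CD93+ libraries, except 1.67 for CD93+ DKO 3. By Xist and Ddx3y, all CD93- libraries were male, while in CD93+ cells CTL 1 and CTL 2 were male and CTL 3 and the DKO libraries were female, so sex and genotype are partly confounded there. Tet3 was 18.0 ± 2.82 FPKM in CTL and 15.4 ± 0.439 in DKO (SD, n = 3) in CD93- cells, and 13.1 ± 1.01 and 7.14 ± 3.08 in CD93+ cells. Tet2 was 7.75 ± 1.26 and 9.16 ± 0.917, and 3.25 ± 0.192 and 2.55 ± 0.905. A gene-level value does not check a deletion of some exons, so genotype rests on the labels. Cd93 itself was 4.34 ± 0.408 FPKM in CD93- CTL and 53.9 ± 5.22 in CD93+ CTL, in tables that were scaled separately. The 10 pan-B cell markers were all above 0 and summed to at least 1513 FPKM in every library.

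All 10 genes were expressed in both populations, with levels from 0.922 to 103 FPKM. In CD93- CTL cells Hdac1 was highest at 70.3 ± 11.2 FPKM (SD, n = 3), followed by Hdac7 at 42.8 ± 7.74 and Hdac10 at 37.3 ± 4.22, whose libraries overlapped. Hdac3 at 21.2 ± 4.25, Hdac5 at 19.4 ± 2.85 and Hdac2 at 18.9 ± 1.51 overlapped across libraries, although Hdac3 was above Hdac5 in each of the 3. Hdac9 at 10.03 ± 1.42 stood clear of both neighbours, and Hdac6 at 5.11 ± 1.18, Hdac8 at 3.99 ± 1.52 and Hdac4 at 2.72 ± 0.395 each overlapped the next. FPKM is a level per transcript length, so these levels can be set side by side.

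In CD93+ CTL cells Hdac1 was again highest at 94.6 ± 9.08 FPKM, but Hdac5 at 64.9 ± 7.82 was the next, overlapping Hdac7 at 57.0 ± 11.6. Hdac2 at 36.9 ± 4.31 overlapped Hdac3 at 30.1 ± 5.98, which overlapped Hdac10 at 21.3 ± 4.27, and Hdac10 could not be told from Hdac8 at 20.7 ± 3.13. Hdac9 at 11.7 ± 0.351, Hdac6 at 4.51 ± 1.15 and Hdac4 at 2.06 ± 0.423 followed without overlap. In DKO libraries the order was the same in CD93+ cells, though more neighbours overlapped, and in CD93- cells Hdac9 dropped from the seventh place to the ninth, at 4.91 ± 0.427 FPKM beside Hdac8 at 5.54 ± 0.860 and Hdac6 at 5.34 ± 0.798.

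**Figure D1:**
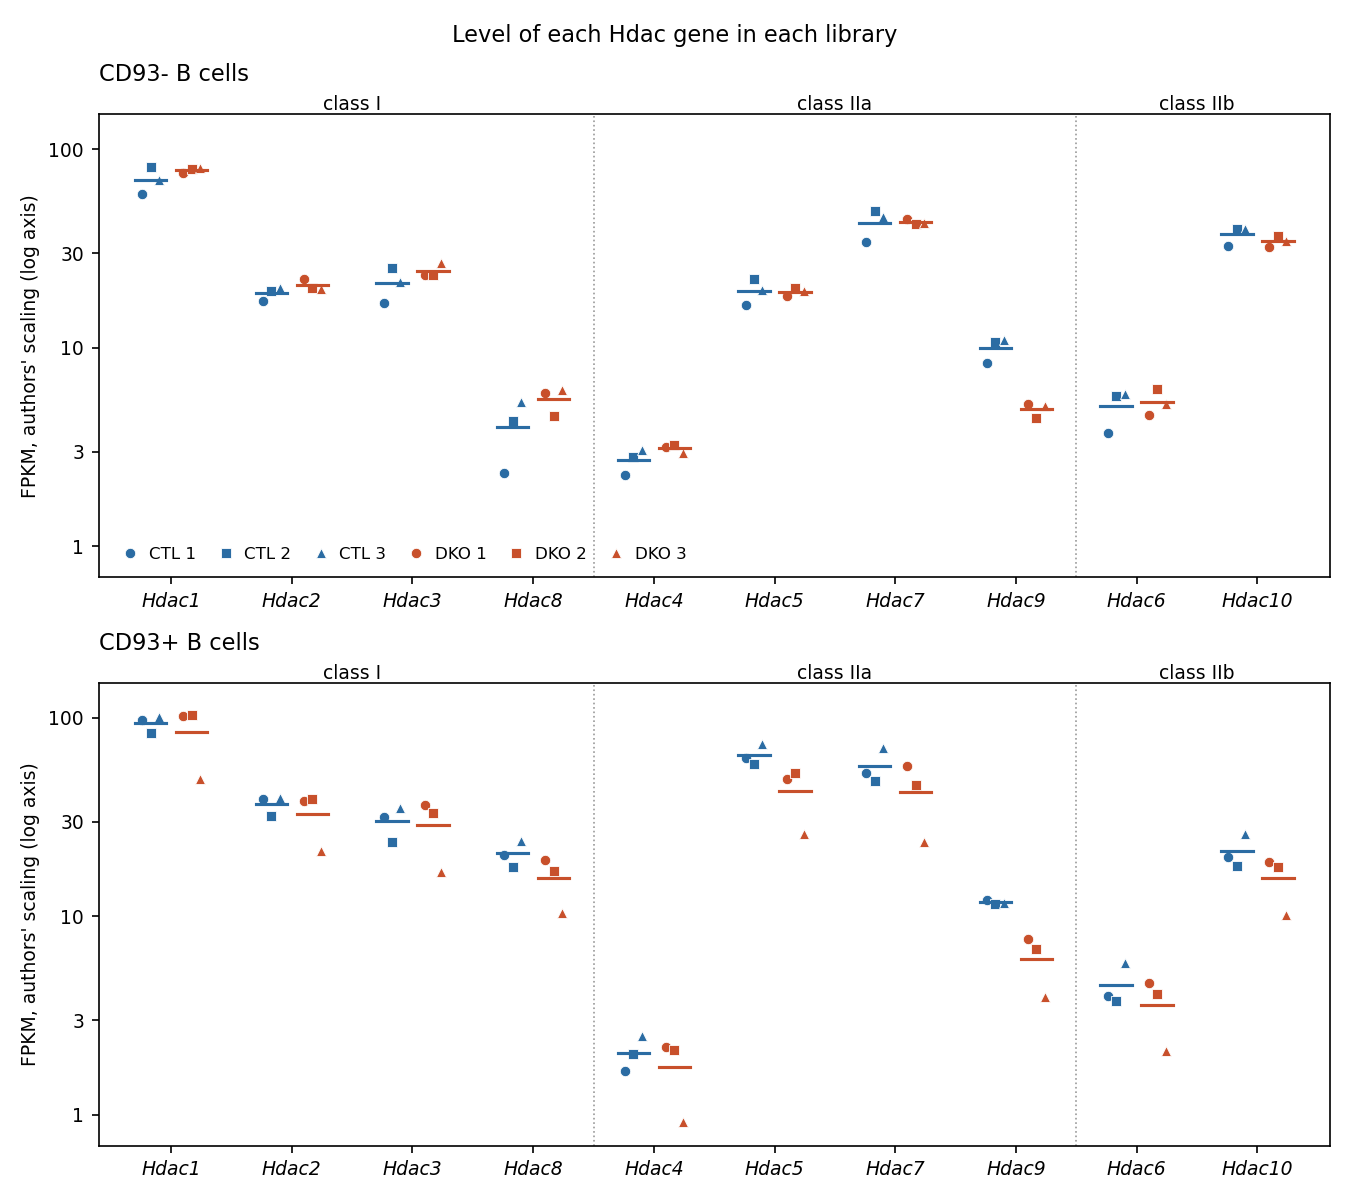
FPKM with the authors' scaling on a log axis for each Hdac gene in each library of CD93- cells (top) and CD93+ cells (bottom); blue is CTL, red is DKO, symbols mark the replicate and horizontal bars the group mean. Hdac9 is the gene whose groups stand apart in both populations (8.40 to 10.95 against 4.42 to 5.23 FPKM in CD93- cells), and the triangle of CD93+ DKO 3 is the lowest point for every gene. Groups also stood apart for 38.9% of all tested genes in CD93- and 21.9% in CD93+ cells.

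Hdac9, a class IIa gene, was lower in DKO libraries of CD93- cells, the only one of the 10 that passed the test with the authors' scaling. In CD93+ cells it was lower after rescaling. In CD93- cells the CTL libraries held 8.40, 10.7 and 10.95 FPKM and the DKO libraries 5.23, 4.42 and 5.07. The groups did not overlap (as in 38.9% of all tested genes, where 7.43% were lower in DKO without overlap). The level fell 2.04-fold, with a log2 change of -0.89 ± 0.14 (SE) and an adjusted p of 0.000839 (limma, Benjamini-Hochberg over 10960 genes). Log2 changes are DKO minus CTL of log2(FPKM + 1). Counted from the lowest change it held rank 81 of the 10960 tested genes. After rescaling the change was -1.09 ± 0.08, with an adjusted p of 0.000136. Hdac9 passed in all 25 alternative analyses of CD93- cells, with changes from -1.14 to -0.60 and adjusted p from 9.50e-07 to 0.0368.

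As the one member called lower among 10, Hdac9 stands beside 2.79% of all tested genes called lower (306 of 10960), and beside 21.5% called in either direction. The rescaled analysis called 4 members lower, namely Hdac9, Hdac10, Hdac5 and Hdac7, where 23.8% of all genes were called lower and 40.9% either way. The calls over all genes were 2045 higher and 306 lower with the authors' scaling, and 1869 higher and 2609 lower rescaled. The median change of all tested genes was 0.11 with the authors' scaling and -0.08 rescaled, so a gene with the typical change sits there and not at 0. Relative to those medians Hdac9 was at -1.01 under both scalings, and relative to the CD93+ medians given below at -0.66 under both.

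In CD93+ cells the CTL libraries held 12.1, 11.5 and 11.6 FPKM of Hdac9 and the DKO libraries 7.66, 6.83 and 3.91. The groups again did not overlap (as in 21.9% of all tested genes, where 19.0% were lower in DKO without overlap), and DKO 3 was the lowest. With the authors' scaling the change was -0.88 ± 0.34 with an unadjusted p of 0.0106 and an adjusted p of 0.194 in limma, which does not pass. The rescaled libraries held 11.02, 11.4 and 9.94 FPKM in CTL and 6.61, 6.13 and 6.53 in DKO, so DKO 3 no longer stood apart. The rescaled change was -0.67 ± 0.09, a 1.68-fold lower level, with an adjusted p of 0.00522. Without DKO 3 and with the authors' scaling the change was -0.63 and the adjusted p 0.0305.

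With the authors' scaling 0 of the 10 members passed in CD93+ cells in limma, where 3.21% of 11250 tested genes were called and 1.54% were called lower. At an unadjusted p under 0.05 in limma the count was 1 of 10, Hdac9, beside 1338 of the 11250 tested genes. This fit recovered 9% of simulated log2 changes of 1, so a member that did not pass may still have changed that much. After rescaling 2 members passed, Hdac9 and Hdac5, both lower, beside 20.7% of all genes called and 9.34% called lower. The median change of all genes was -0.22 with the authors' scaling and -0.01 rescaled. Hdac9 passed in 13 of 27 alternative analyses and Hdac5 in 11 of 27. Of the 12 alternatives that rescaled or quantile-normalized the libraries, 11 called each of them. Hdac9 missed when sex entered the rescaled fit (-0.56, adjusted p 0.0594), and Hdac5 when the replicate number did (adjusted p 0.0503). In the 1 female control library, CTL 3, rescaled Hdac9 was 9.94 FPKM, below the male controls (11.02 and 11.4) and above all 3 DKO libraries, which were female. With 1 female control library, the parts of sex and genotype cannot be told apart. Whether the effect on Hdac9 differed between the populations was not tested, since the tables were scaled separately.

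Other signals moved with genotype in these libraries, given here with the authors' scaling unless stated. The 9 plasma cell markers found in the tables summed to 205 to 287 FPKM in CTL and 721 to 791 in DKO libraries of CD93- cells, and to 331 to 445 and 1305 to 2311 in CD93+ cells. The 15 proliferation markers summed to 130 to 180 and 403 to 439 FPKM in CD93- cells, where 14 of 15 were called higher, while the CD93+ groups overlapped (1128 to 1288 and 873 to 1403). Pan-B cell markers summed to 3285 to 4058 and 3349 to 3501 FPKM in CD93- cells, and 3 of 10 were called lower in each population. After rescaling 7 of 10 were lower in each, where 23.8% of all tested genes in CD93- and 9.34% in CD93+ cells were. In CD93+ cells pan-B cell markers summed to 3267 to 4264 and 1513 to 3161, red cell markers to 15095 to 64415 and 3320 to 15716, and neutrophil markers to 1608 to 2240 and 449 to 1404. The 7 transitional B cell markers, Cd93 among them, summed to 276 to 347 and 264 to 288 FPKM in CD93- cells and to 1994 to 2483 and 1044 to 1983 in CD93+ cells. Of other markers in CD93- cells, 6 of 11 tested for T cells, 1 of 9 for NK cells, 2 of 3 for macrophages, 4 of 8 for dendritic cells, 4 of 6 for red cells, 0 of 4 for neutrophils and 0 of 1 for platelets were called higher. In CD93+ cells 1 of 11 for T cells and 3 of 9 for NK cells were called higher, 6 of 9 for red cells and 2 of 9 for neutrophils lower, and none for macrophages, dendritic cells or platelets. Rescaled CD93+ calls were 5 of 9 for NK cells, 1 of 11 for T cells, 2 of 6 for dendritic cells and 3 of 15 for proliferation higher. Lower were 5 of 9 for neutrophils, 1 of 4 for platelets, 1 of 11 for T cells and 0 of 9 for red cells. Rescaled CD93- calls differed for red cells (2 of 6 higher), dendritic cells (also 2 of 8 lower) and neutrophils (1 of 4 lower). No marker was at 0 in all libraries of a population, but 5 of 9 neutrophil, 5 of 6 platelet and 4 of 10 macrophage markers stayed below 1 FPKM in all CD93- libraries. The part of these shifts in the change of Hdac9 or any other member was not tested. In bulk RNA, fewer cells of a type and less RNA per cell cannot be told apart.

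The other class IIa genes changed less, and Hdac5 was lower in CD93+ cells. Its CD93+ CTL libraries held 63.0, 58.2 and 73.5 FPKM and its DKO libraries 49.4, 52.8 and 26.1, without overlap (as in 21.9% of all tested genes). The change was -0.65 ± 0.40 with an adjusted p of 0.543 with the authors' scaling in limma. Rescaled, the libraries held 57.2, 58.0 and 62.8 FPKM in CTL and 42.6, 47.4 and 43.5 in DKO, and the change of -0.41 ± 0.07 passed with an adjusted p of 0.0126. In CD93- cells the Hdac5 groups overlapped at 16.4, 22.1 and 19.5 FPKM in CTL and 18.3, 19.9 and 19.3 in DKO. The CD93- change was -0.00 ± 0.14 with the authors' scaling and -0.22 ± 0.05 rescaled, where it passed with an adjusted p of 0.0180. The rescaled CD93- call lay near the threshold: without CTL 2, DKO 1 or DKO 3 the adjusted p was 0.0580, 0.0559 and 0.0574.

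Hdac7, the class IIa enzyme tied to B lineage identity, held 34.0, 48.7 and 45.6 FPKM in CD93- CTL libraries and 44.6, 42.2 and 42.5 in DKO libraries. The groups overlapped, with a change of 0.03 ± 0.15 that turned to -0.19 ± 0.06 on rescaling (adjusted p 0.0356 in limma), a call kept in 2 of the 6 rescaled fits that left out a library. In CD93+ cells it held 52.6, 48.3 and 70.2 FPKM in CTL and 57.3, 45.6 and 23.7 in DKO, and its rescaled change of -0.26 ± 0.12 had an adjusted p of 0.185. Hdac4, the lowest member, held 2.28 to 3.05 FPKM in CD93- CTL and 2.96 to 3.25 in DKO libraries. In CD93+ cells Hdac4 was at 1.66 to 2.50 and 0.922 to 2.20 FPKM, and it passed in no analysis of either population.

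**Figure D2:**
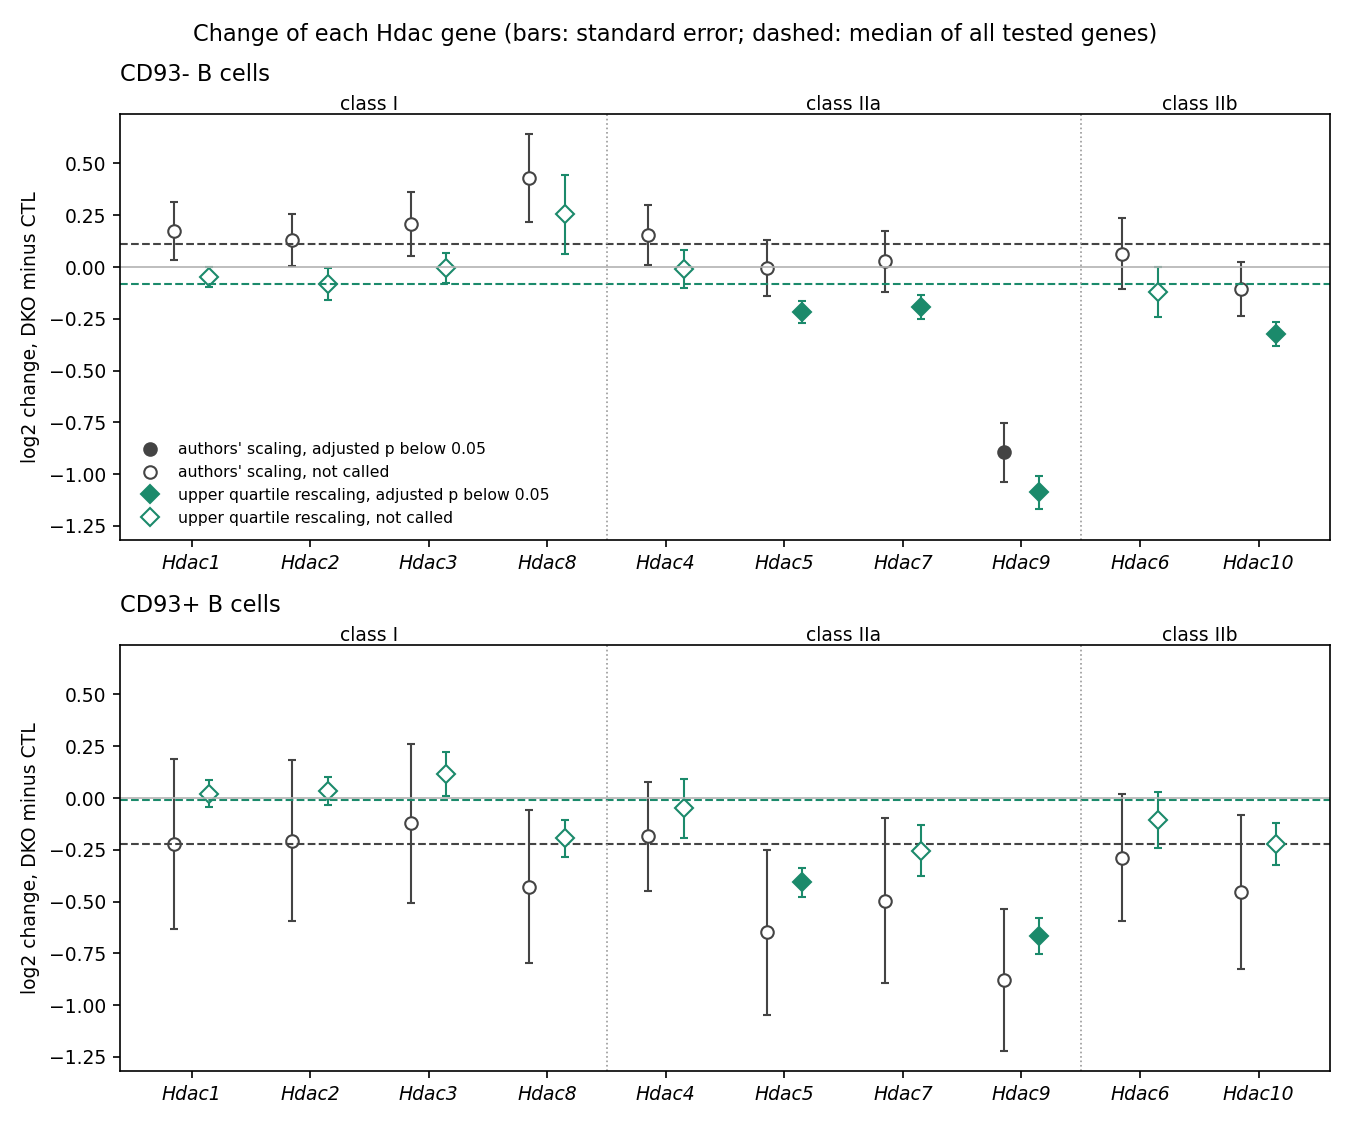
Log2 change of each Hdac gene, DKO minus CTL, with its standard error in CD93- cells (top) and CD93+ cells (bottom); grey circles use the authors' scaling, green diamonds the upper quartile rescaling, filled symbols had an adjusted p below 0.05 in limma, and dashed lines mark the median of all tested genes. Hdac9 lies lowest in both panels (-0.89 and -1.09 in CD93- cells, -0.88 and -0.67 in CD93+ cells), and standard errors are wider in CD93+ cells with the authors' scaling.

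No class I gene passed in either population under either scaling in limma. Of all tested genes 21.5% passed in CD93- cells (40.9% rescaled) and 3.21% in CD93+ cells (20.7% rescaled). At an unadjusted p under 0.05 in limma the count was also 0 of 4. Of all genes, 3639 of 10960 reached that in CD93- cells (5571 rescaled) and 1338 of 11250 in CD93+ cells (4122 rescaled). Hdac1 held 59.4, 81.8 and 69.7 FPKM in CD93- CTL libraries and 76.3, 79.2 and 80.7 in DKO libraries. The DKO values lay within the CTL range, and the change was 0.17 ± 0.14, or -0.05 ± 0.05 rescaled. In CD93+ cells Hdac1 held 98.0, 84.3 and 101 FPKM in CTL and 103, 103 and 49.4 in DKO. DKO 3 alone lay below the CTL range, and the rescaled change was 0.02 ± 0.07.

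Hdac2, the close relative of Hdac1, held 17.2, 19.4 and 20.0 FPKM in CD93- CTL libraries and 22.2, 20.1 and 19.9 in DKO libraries, with overlap. Its CD93+ values were 39.1, 31.9 and 39.6 FPKM in CTL and 38.3, 38.8 and 21.4 in DKO. The ratio of Hdac1 to Hdac2 within a library does not depend on scaling. It was 3.72 ± 0.432 in CTL and 3.81 ± 0.336 in DKO libraries of CD93- cells, and 2.57 ± 0.0681 and 2.55 ± 0.205 in CD93+ cells (SD, n = 3), with overlapping groups in both.

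Hdac3, the subunit of the NCoR complex, held 16.8, 25.3 and 21.5 FPKM in CD93- CTL libraries and 23.3, 23.2 and 26.7 in DKO libraries. Its CD93+ values were 31.6, 23.6 and 35.2 FPKM in CTL and 36.3, 33.2 and 16.7 in DKO. The rescaled changes were -0.00 ± 0.07 and 0.12 ± 0.11. Both rescaled groups overlapped.

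Hdac8, which is on the X chromosome, had the largest upward value among members in CD93- cells, from 2.35, 4.30 and 5.33 FPKM in CTL to 5.94, 4.56 and 6.13 in DKO libraries. The groups overlapped and the change of 0.43 ± 0.21 did not pass (adjusted p 0.181 in limma; 0.26 ± 0.19 rescaled). The change depended on single control libraries. Without CTL 3, the highest, it was 0.63 with an adjusted p of 0.0375 in limma (0.43 and 0.0947 rescaled). Without CTL 1, the lowest, it was 0.17 with an adjusted p of 0.431 (0.07 and 0.732 rescaled). In CD93+ cells Hdac8 held 20.4, 17.8 and 24.0 FPKM in CTL and 19.2, 16.9 and 10.45 in DKO, with a rescaled change of -0.20 ± 0.09 and an adjusted p of 0.159 in limma. The rescaled groups did not overlap (as in 42.9% of all tested genes). The change was thus above 0 in one population and below 0 in the other, with neither called, and the difference between them was not tested.

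Of the class IIb genes, Hdac10 was lower in CD93- cells after rescaling. It held 32.4, 39.9 and 39.5 FPKM in CTL and 32.0, 36.7 and 34.6 in DKO libraries, which overlap, with a change of -0.11 ± 0.13 (adjusted p 0.636 in limma). Rescaled values were 40.9, 38.8 and 40.6 FPKM in CTL and 30.2, 34.2 and 31.3 in DKO, without overlap (as in 54.7% of all tested genes). The rescaled change was -0.32 ± 0.06, a 1.26-fold lower level, with an adjusted p of 0.00491, and it passed in 11 of 11 scaled alternatives. In CD93+ cells Hdac10 held 19.9, 17.9 and 26.1 FPKM in CTL and 18.9, 17.8 and 10.2 in DKO, with a rescaled change of -0.22 ± 0.10 and an adjusted p of 0.158. Hdac6, the other gene of the class and X-linked, held 3.74, 5.73 and 5.85 FPKM in CD93- CTL and 4.59, 6.18 and 5.23 in DKO libraries. Its CD93+ values were 3.95, 3.75 and 5.83 FPKM in CTL and 4.63, 4.06 and 2.098 in DKO. The groups overlapped in both and Hdac6 passed in no analysis.

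The make-up of the Hdac transcripts can be read without any scaling, as each gene's share of the summed FPKM of the 10 members in its own library. Class I made up 49.4 ± 0.930% of that sum in CD93- CTL and 54.0 ± 0.951% in DKO libraries (SD, n = 3), and 53.1 ± 1.98% and 59.2 ± 0.736% in CD93+ cells. Class IIa made up 32.3 ± 0.584% and 29.4 ± 0.777%, and 39.5 ± 1.46% and 33.7 ± 0.810%. In each of these 4 comparisons the groups did not overlap, and the exact two-sided permutation test gave 0.1, the smallest p that 3 libraries against 3 allow. Class IIb was at 18.3 ± 0.745% and 16.6 ± 1.19% in CD93- cells (exact permutation p 0.2) and at 7.47 ± 0.638% and 7.08 ± 0.333% in CD93+ cells (0.6). Shares add up to the whole, so a gene's share also moves with the others.

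Hdac9 took 4.35%, 4.12% and 4.54% of the sum in CD93- CTL libraries and 2.22%, 1.84% and 2.09% in DKO libraries. In CD93+ cells it took 3.55%, 3.84% and 2.98% in CTL and 2.28%, 2.12% and 2.37% in DKO. The 2.98% was from CTL 3, the 1 female control library, and all CD93+ DKO libraries were female. Hdac5 took 18.4%, 19.5% and 18.8% in CD93+ CTL and 14.7%, 16.4% and 15.8% in DKO, and 8.37 ± 0.228% and 8.01% on average in CD93- cells. Of 20 shares tested, 6 reached the smallest exact permutation p of 0.1 (adjusted 0.333 by Benjamini-Hochberg over the 20). These were Hdac1 and Hdac9 in CD93- cells and Hdac1, Hdac3, Hdac5 and Hdac9 in CD93+ cells. The shares of Hdac1 were the higher in DKO libraries, at 30.4 ± 1.28% against 32.9% in CD93- cells and 27.6 ± 1.40% against 30.9% in CD93+ cells.

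**Figure D3:**
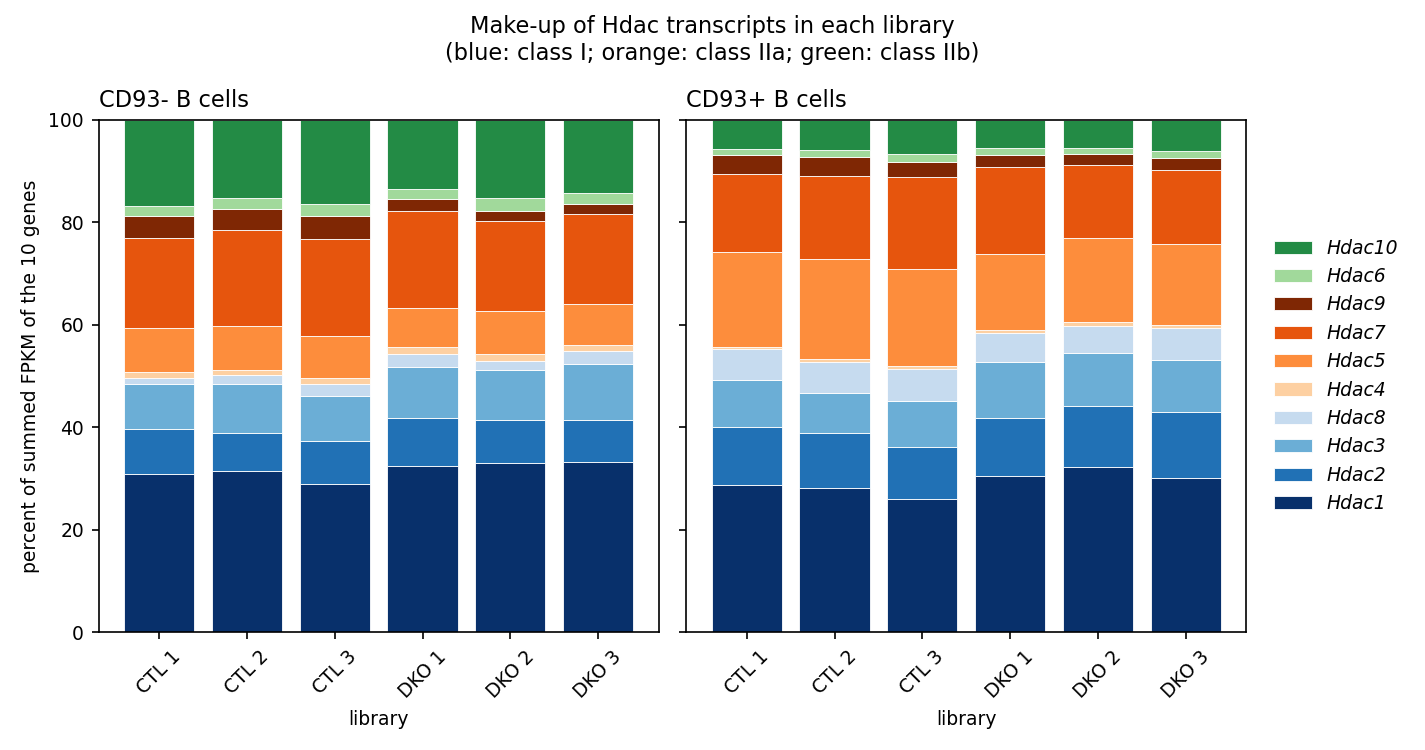
Share of each Hdac gene in the summed FPKM of the 10 genes, in percent, for each library of CD93- cells (left) and CD93+ cells (right); blues are class I, oranges class IIa and greens class IIb. The blue part reaches 48.3 to 50.2% in CD93- CTL and 53.0 to 54.9% in CD93- DKO libraries, and CD93+ DKO 3 has the make-up of the other DKO libraries.

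Set against single relatives in the same library, Hdac9 was lower in DKO cells in each pairing tried. Since its change was the lowest of all members, that direction was given beforehand, and the ratios serve as a description free of scaling. The ratio of Hdac9 to Hdac4 was 3.69 ± 0.104 in CTL and 1.58 ± 0.188 in DKO libraries of CD93- cells, and 5.88 ± 1.35 and 3.65 ± 0.536 in CD93+ cells. Hdac9 to Hdac5 was 0.519 ± 0.0384 and 0.257 ± 0.0323 in CD93- cells, but 0.183 ± 0.0213 and 0.145 ± 0.0138 in CD93+ cells, where Hdac5 was lower too. Hdac9 to Hdac7 was 0.236 ± 0.0138 and 0.114 ± 0.00786 in CD93- cells. In CD93+ cells that ratio was 0.211 ± 0.0398 and 0.149 ± 0.0157, and the nearest libraries, CTL 3 and DKO 3, almost met. CTL 3, the 1 female control library, was the CTL library nearest to DKO in each of these CD93+ ratios. All CD93+ DKO libraries were female, so sex and genotype cannot be told apart in these ratios either. As a percent of the class I sum, Hdac9 stood at 8.79 ± 0.597% and 3.79% in CD93- cells and at 6.50 ± 0.743% and 3.82% in CD93+ cells.

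**Figure D4:**
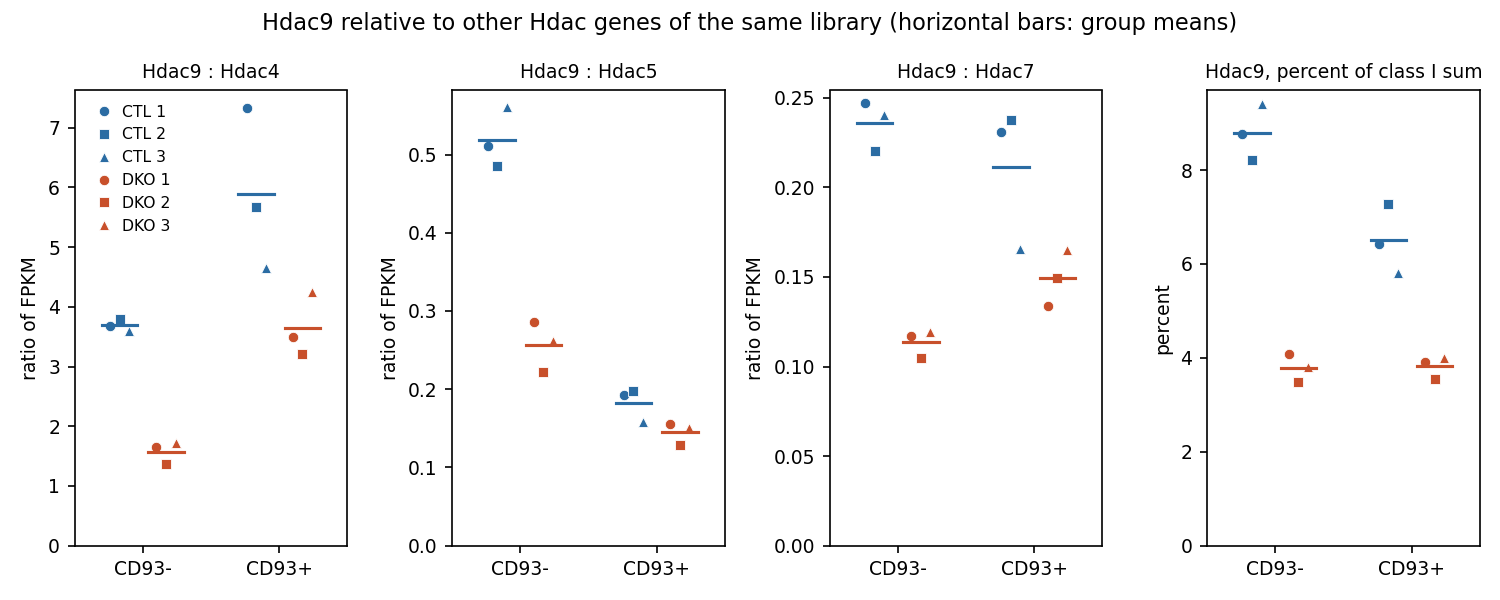
FPKM of Hdac9 divided by that of Hdac4, Hdac5 or Hdac7, and as a percent of the class I sum, in each library; blue is CTL, red is DKO, symbols mark the replicate and bars the group mean. The CD93- groups are widely apart in every panel, and the CD93+ groups come closest for Hdac7, at 0.166 in CTL 3 and 0.165 in DKO 3. In CD93+ cells CTL 3 is the 1 female control library, and all DKO libraries were female.

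Between the populations, the shares of Hdac8, Hdac5 and Hdac10 lay farthest apart. The tables were scaled separately, so for the Hdac genes only shares are set side by side, as a description with no test, and all CD93- libraries were male. The marker sums given next are FPKM and do depend on that scaling. Other cell markers also lay apart: in CTL libraries red cell markers summed to 42.7 to 60.5 FPKM in CD93- and 15095 to 64415 in CD93+ cells, and neutrophil markers to 3.88 to 10.52 and 1608 to 2240, and their part in these shares was not tested. In CTL libraries Hdac8 took 6.02% of the Hdac sum in CD93+ and 1.69% in CD93- cells, a 3.56-fold difference. Hdac5 took 18.9% and 8.37%, 2.26-fold more in CD93+ cells, and Hdac10 took 6.17% and 16.2%, 2.62-fold less. Hdac1 (27.6% and 30.4%), Hdac4 (0.601% and 1.18%) and Hdac6 (1.30% and 2.19%) were the lower in CD93+ cells, and Hdac2 (10.7% and 8.21%) the higher, each without overlap. How often other genes lie apart between the populations was not computed, so the lack of overlap is a description only. Hdac3 and Hdac7 overlapped. The control shares of Hdac9 did not overlap (3.45% in CD93+ and 4.34% in CD93- cells), while its DKO shares did, at 2.26% and 2.05%.

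Counts for partners of the Hdac genes are read against all tested genes. The lists were chosen with earlier results of these data known, so the counts are descriptions and not independent support. In CD93- cells 18.7% of these were called higher and 2.79% lower with the authors' scaling, and 17.1% and 23.8% after rescaling. In CD93+ cells the shares were 1.67% and 1.54%, and 11.4% and 9.34% after rescaling. An unadjusted p under 0.05 in limma, in either direction, was reached by 3639 of 10960 genes in CD93- cells with the authors' scaling. In CD93+ cells 1338 of 11250 genes reached it. The partners of class I enzymes, like all genes in CD93- cells, had more lower calls after rescaling. In CD93- cells 1 of 16 tested genes of the Sin3 complex was called higher with the authors' scaling, and 1 higher and 6 lower after rescaling. Rbbp7, a histone-binding subunit shared with NuRD, was higher (0.38 rescaled), and Sap25 (-0.61), Arid4a (-0.35) and Sap18 (-0.33) were lower. The median of the list was -0.13 beside -0.08 for all genes. Of 12 NuRD genes 2 were higher with the authors' scaling, and 2 higher and 3 lower after rescaling, with the remodeller Chd3 at -0.42, Gatad2b at -0.28 and Mta1 at 0.24. In CoREST 4 of 9 genes were lower after rescaling, among them Zmym2 (-0.47) and Gse1 (-0.46), and none higher. Of the 9, 0 passed with the authors' scaling in limma, and 0 at an unadjusted p under 0.05.

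Of the corepressors that hold Hdac3, 4 of 6 genes of the NCoR complex list were called lower in CD93- cells after rescaling, beside 23.8% of all genes. Among them were Gps2 (-0.37), Ncor1 (-0.24) and Tbl1xr1 (-0.17). The list median was -0.20 beside -0.08 for all genes. Of these 6, 0 passed with the authors' scaling in limma, and 2 were higher at an unadjusted p under 0.05, where the list median was 0.01 beside 0.11 for all genes. Trerf1, a subunit of MiDAC, was higher under both scalings (1.41, and 1.30 rescaled), from 0.341 ± 0.19 to 2.30 ± 0.46 FPKM after rescaling. In CD93+ cells 0 genes of the Sin3, NuRD, CoREST, NCoR and MiDAC lists passed with the authors' scaling in limma, and 1, 2, 3, 0 and 0 were lower at an unadjusted p under 0.05. After rescaling 3 Sin3, 3 NuRD and 2 CoREST genes were lower, with Chd3 at -0.60, Sap25 at -0.59, Gatad2b at -0.56 and Gse1 at -0.55. Rbbp7 (0.29) and the NCoR subunit Coro2a (0.35) were higher.

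Of the MEF2 factors that class IIa enzymes bind, Mef2b was higher in CD93- cells (2.15, and 1.96 rescaled) and in CD93+ cells (1.51, and 1.69 rescaled), while after rescaling Mef2c was lower in CD93- cells (-0.46) and Mef2d lower in CD93- (-0.23) and CD93+ cells (-0.52). Of 18 tested genes of the list in CD93- cells, 4 were called higher and 0 lower with the authors' scaling, and 4 higher and 5 lower rescaled, shares close to those of all genes. The 14-3-3 genes Ywhae (0.39), Ywhah (0.24) and Ywhag (0.19) were among the higher, and the kinase Prkd2 (-0.32) among the lower. Of 17 genes in CD93+ cells 1 was called higher with the authors' scaling, and 2 higher and 5 lower rescaled, among them the 14-3-3 gene Sfn (1.23) and the kinase Sik1 (-0.64). Rescaled medians were 0.02 in CD93- and -0.13 in CD93+ cells.

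Partners of the class IIb enzyme Hdac6 included tubulins and chaperones that were higher. Of 10 tested partners and substrates of Hdac6 in CD93- cells, 6 were called higher with the authors' scaling, with a median of 0.62 beside 0.11 for all genes. After rescaling 6 were higher and 1 lower, with the tubulins Tuba1b at 0.71 and Tuba1c at 0.67, the segregase Vcp at 0.47 and the chaperone Hsp90ab1 at 0.43. In CD93+ cells 7 of 12 were higher after rescaling, among them Cttn (0.80), Hsp90aa1 (0.57), Hsp90ab1 (0.38) and Vcp (0.32), while 0 passed with the authors' scaling in limma and 1 was higher at an unadjusted p under 0.05. The proliferation markers of the same libraries are given above. Of 7 tested polyamine genes in CD93- cells 4 were higher with the authors' scaling and 3 rescaled, led by Srm, spermidine synthase (0.61 rescaled), and Odc1, the first enzyme of the pathway (0.40). In CD93+ cells Srm (0.96) and Sms (0.29) were higher rescaled, and Smox, spermine oxidase, was called lower with the authors' scaling (-1.44) but not rescaled (-1.22, adjusted p 0.115 in limma).

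**Figure D5:**
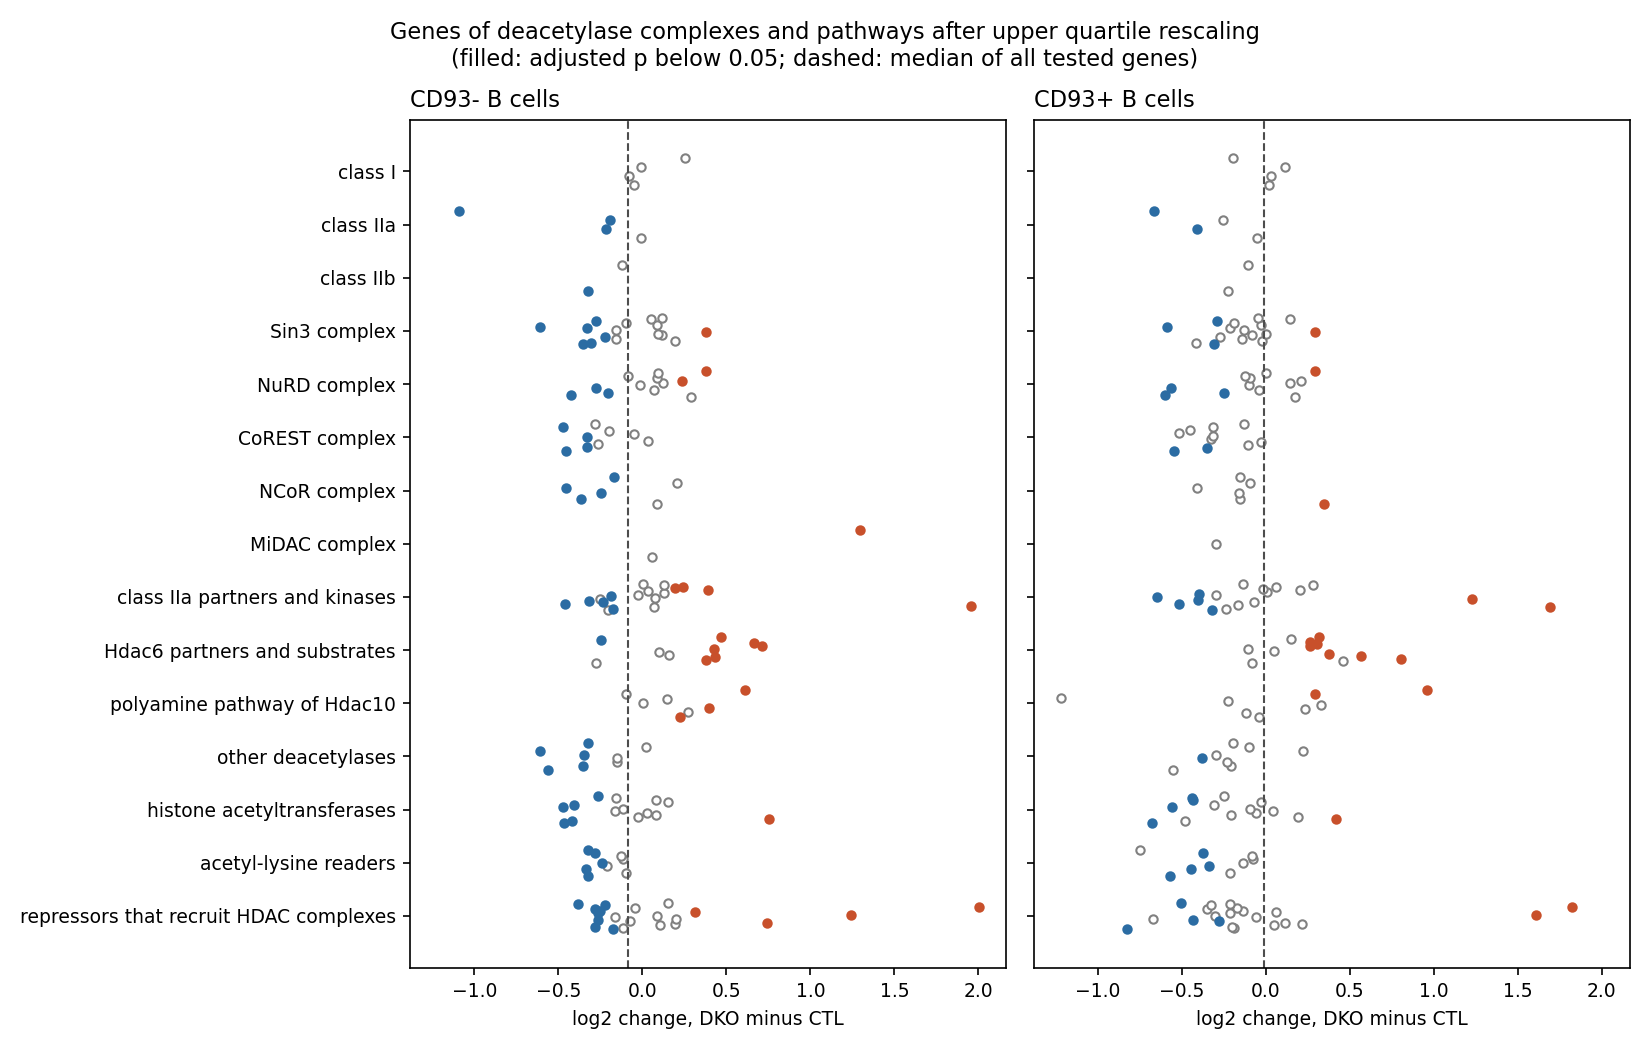
Log2 change, DKO minus CTL, after upper quartile rescaling for every tested gene of the Hdac classes and of lists of their partners and pathways, in CD93- cells (left) and CD93+ cells (right); red is called higher, blue called lower, open not called, and the dashed line is the median of all tested genes. Hdac6 partners lie mostly to the right, with medians of 0.40 and 0.29, and CoREST genes mostly to the left, with medians of -0.28 and -0.32. The lists were chosen with earlier results of these data known.

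Other enzymes and readers of lysine acetylation had most of their calls after rescaling, where 23.8% of all genes in CD93- and 9.34% in CD93+ cells were called lower. Among 8 other deacetylases in CD93- cells, 0 passed with the authors' scaling in limma and 2 were lower at an unadjusted p under 0.05. After rescaling 5 were lower, among them Sirt5 (-0.61), Hdac11 of class IV (-0.56), Sirt1 (-0.36) and Sirt4 (-0.35). Hdac11 was near the filter of 1 FPKM there, at 2.07, 1.26 and 1.94 rescaled FPKM in CTL and 1.23, 0.860 and 0.546 in DKO. Its groups overlapped with the authors' scaling. In CD93+ cells Sirt3 (-0.38) was the 1 called after rescaling. Hdac11, which was not called there, held 4.21, 4.48 and 5.82 FPKM in CTL and 2.21, 3.43 and 1.93 in DKO libraries. Of 14 acetyltransferases the nuclear-cytoplasmic Hat1 was higher in CD93- cells (0.96, and 0.75 rescaled). Rescaled, 5 were lower there, with Myst3 at -0.47, Crebbp at -0.47 and Ep300 at -0.42, and 4 were lower in CD93+ cells, with Crebbp at -0.67 and Myst3 at -0.56. Of 9 acetyl-lysine readers 5 were lower in CD93- cells and 4 in CD93+ cells after rescaling, with Brd3 at -0.34 and -0.45 and Brd1 at -0.32 and -0.57. In limma 0 readers passed in either population with the authors' scaling, and 0 and 2 were lower at an unadjusted p under 0.05.

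Among 21 tested DNA-binding repressors that recruit deacetylase complexes, a few rose strongly. Zbtb32 was higher in CD93- (2.18, and 2.005 rescaled) and CD93+ cells (1.66, and 1.82 rescaled), and Prdm1, which represses the B cell programme as plasma cells form, likewise (1.37, and 1.24 rescaled; 1.47, and 1.61 rescaled). Prdm1 also belongs to the plasma cell markers above. Gfi1 was higher in CD93- cells (0.92, and 0.74 rescaled). After rescaling 8 repressors were lower in CD93- cells, among them Zeb1 (-0.39), and 4 in CD93+ cells, among them Bach2 (-0.82) and Zeb2 (-0.50). In limma 0 were lower in either population with the authors' scaling, and 0 and 3 at an unadjusted p under 0.05.

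The members with the widest spread over the 12 libraries, after rescaling and centring within each table, were Hdac9, Hdac8 and Hdac5. The genes whose profile was most like that of Hdac9 were Ets1, a lymphocyte transcription factor (Pearson r 0.986), Rps6ka5, a nuclear kinase (0.986), and Sh3kbp1, an adaptor protein (0.981), out of 9319 genes tested in both tables. Ets1 was at 185 ± 22.1 FPKM in CTL and 105 ± 1.38 in DKO libraries of CD93- cells, and at 131 ± 9.21 and 72.8 ± 26.1 in CD93+ cells. Most like Hdac5 were Zfp36, which promotes mRNA decay (0.990), Herc4 (0.982) and Cyb561d1 (0.981). The best values for Hdac8 were lower, with Snapc2 at 0.877, Myl4 at 0.846 and Zfp810 at 0.816. These are descriptions over 12 libraries that share genotype groups and scaling, and the top of so many genes is high in any case.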

How the data were processed

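Strand-specific RNA-seq libraries of total RNA were made by the submitters with a SureSelect kit, per the labels' protocols. The submitters' processing notes name the build mm9 and the tools Cufflinks 2.1.1, TopHat2 2.0.8 and Bowtie2 2.1.0. The values deposited by the authors are FPKM, fragments per kilobase of transcript scaled by library size, 1 column per library. The annotation, any filter and the handling of reads shared between near-identical genes are not given in the sources used here. Of 24 samples, 12 were used. The table holding the CD93+ libraries also has 6 columns that repeat values already read, and these were not used. The other 12 samples, CD93-CD23+CD21 Int and CD93-CD23-CD21 Io cells, were not analysed here. In the gene column 25 names had the form of dates and could not be read as genes.

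FPKM holds no counts, so depth is unknown, no counting interval is given, and no count model was used. Genes were kept where 3 or more libraries of a table reached 1 FPKM (10960 in CD93- and 11250 in CD93+ cells, all 10 members in both). On log2(FPKM + 1), limma 3.58.1 (R 4.3.3) compared DKO with CTL. The fit used eBayes with a mean-variance trend, was two-sided, ran within each table, and used Benjamini-Hochberg adjustment with a threshold of 0.05. A pseudocount of 1 understates changes of low genes. In CD93+ cells with the authors' scaling the spread of each gene was taken wholly from the trend. The fit with the authors' scaling was tested on simulated data with 200 changed genes. In CD93- cells it recovered 87% of log2 changes of 1 and 96% of changes of 2, with 4 false among 187 calls. In CD93+ cells it recovered 9% and 83%, with 1 false among 93 calls. A gene not called there may thus still have a log2 change of 1.

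Rescaling multiplied each library so that the upper quartile over tested genes became equal. Shares were compared with exact two-sided permutation tests of 3 libraries against 3. The 10 members, the 12 lists of partners and the marker lists were chosen with earlier results of these data known, and no p over a list is given. Besides the members, Tet genes and Cd93, genes were named as the called genes with the largest change of each list (up to 4), and as the 3 genes with the highest Pearson r to each of the 3 most variable members. Alternatives were pseudocounts of 0.1 and 5, no filter, a filter of 5 FPKM, quantile normalization, no trend, no moderation, sample weights, a replicate block, a sex term and each library left out. Rescaled fits without moderation, without trend and with the sex term were added after seeing the data. Promoter windows are from RefSeq (GRCm38.p6). A few genes of the partner lists are not reported here by name.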

Additional observations from a re-analysis of the deposited data

How the results depend on the processing

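Under the alternatives run, the lower Hdac9 of CD93- cells kept its direction and its call (25 of 25), and in CD93+ cells Hdac9 and Hdac5 kept their direction in all 27 and were called in 13 and 11. Depth is unknown, 3 libraries a group limit what can be seen, and the causes of the moves below were not tested. In CD93- cells the number of genes called went from 2351 to 4478 on rescaling, 4198 with quantile normalization, 942 without moderation, 3689 with the replicate block and rescaling, and 4374 without trend and with rescaling. Members called went from 1 to 4 with rescaling or quantile normalization, and to 3 with rescaling and a block, no moderation or no trend. Leaving out 1 library, with either scaling, gave 1430 to 4053 genes and 1 to 4 members. Without DKO replicate 3 and with the authors' scaling, the count was 1430.

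In CD93+ cells genes called went from 361 to 16 without filter, 168 with a filter of 5 FPKM, 2331 on rescaling, 2230 with quantile normalization, 188 without trend, 1 without moderation, 783 with sample weights, 127 with a sex term and 570 with that and rescaling, 1178 without moderation and with rescaling, and 2052 without trend and with rescaling. Members called went from 0 to 2 on rescaling, with quantile normalization, and on rescaling without moderation or trend, and to 1 with sample weights (Hdac9) and with sex and rescaling (Hdac5). Leaving out 1 library gave 163 to 2101 genes and 0 to 2 members. With the authors' scaling that was 163 without CTL replicate 1, 189 without CTL replicate 2 and 675 without DKO replicate 3, the last with 1 member. Rescaled, it was 952 and 839 without those CTL libraries and 1506 and 1149 without DKO replicates 1 and 2.

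The labels do not say whether replicate numbers mark pairs of libraries. Same-numbered deviations correlated at 0.02, -0.11 and -0.09 in CD93- cells and 0.17, -0.11 and -0.14 in CD93+ cells. Deviations were taken from group means of 3 libraries, which ties them to each other, so these values cannot decide it. With the replicate block, 2874 genes and 2 members (Hdac9 lower, Hdac8 higher at 0.43) were called in CD93- cells and 237 genes and 0 members in CD93+ cells. With block and rescaling the CD93- counts were 3689 and 3 and the CD93+ counts 898 and 1 (Hdac9).

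Signs turned for members near 0. Every rescaled fit of CD93- cells on all libraries (with or without block, moderation or trend) gave -0.048 for Hdac1, -0.082 for Hdac2, -0.0049 for Hdac3, -0.010 for Hdac4, -0.19 for Hdac7 and -0.12 for Hdac6, each above 0 with the authors' scaling. Quantile normalization gave -0.073 for Hdac1, -0.063 for Hdac2, -0.23 for Hdac7 and -0.067 for Hdac6, and sample weights -0.080 for Hdac7 and -0.0048 for Hdac6. In CD93+ cells rescaled fits gave 0.022 for Hdac1, 0.033 for Hdac2 and 0.12 for Hdac3 (0.018 for Hdac1 and 0.027 for Hdac2 with sex), against values below 0. Quantile normalization gave 0.018 for Hdac2 and 0.12 for Hdac3, and sample weights 0.018 for Hdac1, 0.15 for Hdac3, 0.19 for Hdac4, 0.038 for Hdac7 and 0.12 for Hdac6. Leaving out 1 library, with either scaling, CD93- changes ran from -0.084 to 0.29 for Hdac1, -0.14 to 0.17 for Hdac2, -0.052 to 0.34 for Hdac3, -0.042 to 0.22 for Hdac4, -0.25 to 0.092 for Hdac5, -0.24 to 0.13 for Hdac7 and -0.21 to 0.16 for Hdac6. The CD93+ ranges were -0.40 to 0.13 for Hdac1, -0.35 to 0.071 for Hdac2, -0.32 to 0.22 for Hdac3, -0.31 to 0.056 for Hdac4 and -0.46 to 0.016 for Hdac6. A share taken of 1 class changes its denominator. As log2 ratios, shares of the class I sum were -0.014 for Hdac1, -0.054 for Hdac2 and -0.10 for Hdac6 in CD93- cells and -0.11 for Hdac4 and -0.16 for Hdac6 in CD93+ cells. Shares of the class IIa sum were 0.074 for Hdac5 and 0.10 for Hdac7 in CD93- cells and 0.11 for Hdac7, 0.16 for Hdac8 and 0.13 for Hdac10 in CD93+ cells, each with the opposite sign of the share of all 10. Leaving out 1 library, share ratios ran from -0.094 to 0.11 for Hdac6 in CD93- cells, and from -0.077 to 0.15 for Hdac4, -0.075 to 0.12 for Hdac6 and -0.14 to 0.0023 for Hdac8 in CD93+ cells.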
